A study of Homo sapiens with 22 samples.

Results

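The enzymes and subunits that place and remove N6-methyladenosine (m6A) on mRNA were examined by RNA-seq in acute myeloid leukemia (AML) cells treated with an FTO degrader. The 10 genes were taken by symbol from the 20411 protein-coding genes of the deposited tables: the erasers FTO and ALKBH5, the writers METTL3, METTL14 and METTL16, and the writer complex subunits WTAP, VIRMA, RBM15, ZC3H13 and CBLL1. All 10 were present in both tables and passed the filter of a mean of at least 1 RPKM in both cell lines. RPKM is a read count scaled by gene length and by the library total. MOLM-13 cells, labelled wild type, and NB4 cells, also labelled wild type, were incubated with 2 μM FP54 or with the vehicle DMSO for 48 hours, with 3 libraries per treatment and line. FP54 joins an FTO ligand to a recruiter of the VHL ubiquitin ligase, so that FTO protein is marked for destruction by the proteasome. RNA-seq does not read protein, and the FTO mRNA level is therefore no check that the degrader acted. The 10 m6A-seq and polysome-seq samples of the series were not analysed here.

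A nuclear complex writes m6A: METTL3 transfers the methyl group from S-adenosylmethionine, METTL14 holds the RNA, and WTAP, VIRMA, RBM15, ZC3H13 and CBLL1 place the pair on its targets. METTL16 is a separate methyltransferase that acts on U6 small nuclear RNA and on the mRNA of the S-adenosylmethionine synthetase MAT2A. FTO and ALKBH5 are iron- and oxoglutarate-dependent dioxygenases that take the mark off, and FTO is known for supporting growth of several AML subtypes.

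The library total by which RPKM was scaled, recovered from the values, was 16299701 to 17346914 (DMSO) and 5829730 to 19191055 reads (FP54) per MOLM-13 library, and 20654055 to 22344265 (DMSO) and 10595647 to 13071303 (FP54) per NB4 library. The shallowest library was MOLM-13 FP54 replicate 2. Of the markers chosen for MOLM-13, FLT3 (mean RPKM 74.0 against 5.67), HOXA9 (21.3 against 0.234), MEIS1 (6.36 against 0.157) and HLA-DRA (1.67 against 0.0505) were higher in the MOLM-13 than in the NB4 DMSO libraries. HOXA10 was not (7.30 against 13.2). Of the general myeloid markers, CD33 (32.3 in MOLM-13 and 13.3 in NB4), SPI1 (155 and 80.2) and PTPRC (24.3 and 9.08) were present in both. CD34 was near the floor (0 and 0.0185). Of the promyelocytic markers chosen for NB4, MPO was higher in NB4 (2170 against 16.1), as was HGF (3.32 in NB4), but the other 4 were lower there than in MOLM-13: ELANE (0.150 against 186), PRTN3 (61.0 against 413), AZU1 (9.96 against 174) and CTSG (58.5 against 116). The epithelial marker EPCAM was at 8.15 RPKM in NB4 and 0.0158 in MOLM-13 DMSO libraries. The identity of the NB4 table rests on its name. The mean level of 416 olfactory receptor genes, taken here as a gauge of background, was 0.0496 to 0.0549 RPKM in the NB4 FP54 libraries. It was 0.00168 to 0.00372 in NB4 DMSO, and lay between 0.00386 and 0.00831 in MOLM-13. The part of this in the results below was not tested, except that subtracting it from every gene left the member counts as they were.

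The members spanned a wide range of levels per length. In both lines and under both treatments ZC3H13, a scaffold that keeps the complex in the nucleus, had the highest mean, and FTO had the lowest. The exon-union length was longest for FTO (21379 bases) and shortest for ALKBH5 (3601), and the order by reads was different. In NB4 DMSO replicate 1, for example, FTO had 1262 reads and RBM15 953. In MOLM-13 DMSO cells the order was ZC3H13 (58.6 ± 10.9 RPKM, SD, n = 3), VIRMA (30.4 ± 3.25), ALKBH5 (22.0 ± 1.10), WTAP (20.2 ± 1.00), METTL3 (12.7 ± 1.03), CBLL1 (9.69 ± 0.950), METTL14 (8.76 ± 0.382), RBM15 (8.31 ± 0.224), METTL16 (3.91 ± 0.726) and FTO (1.01 ± 0.0767). Libraries of neighbors in that order overlapped for ALKBH5 and WTAP, for CBLL1 and METTL14, and for METTL14 and RBM15, and were separate for the other neighbors. In NB4 DMSO cells the order was ZC3H13 (46.3 ± 4.88), ALKBH5 (28.0 ± 1.24), WTAP (23.6 ± 1.83), CBLL1 (20.3 ± 2.64), METTL3 (12.9 ± 0.479), RBM15 (8.70 ± 1.02), METTL14 (8.44 ± 1.04), VIRMA (7.88 ± 0.809), METTL16 (6.25 ± 0.684) and FTO (2.73 ± 0.180). There WTAP overlapped CBLL1, and RBM15, METTL14, VIRMA and METTL16 overlapped from each to the next. The reads behind a value ran from 125 for FTO in the shallowest library to 12665 for ZC3H13.

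**Figure D1:**
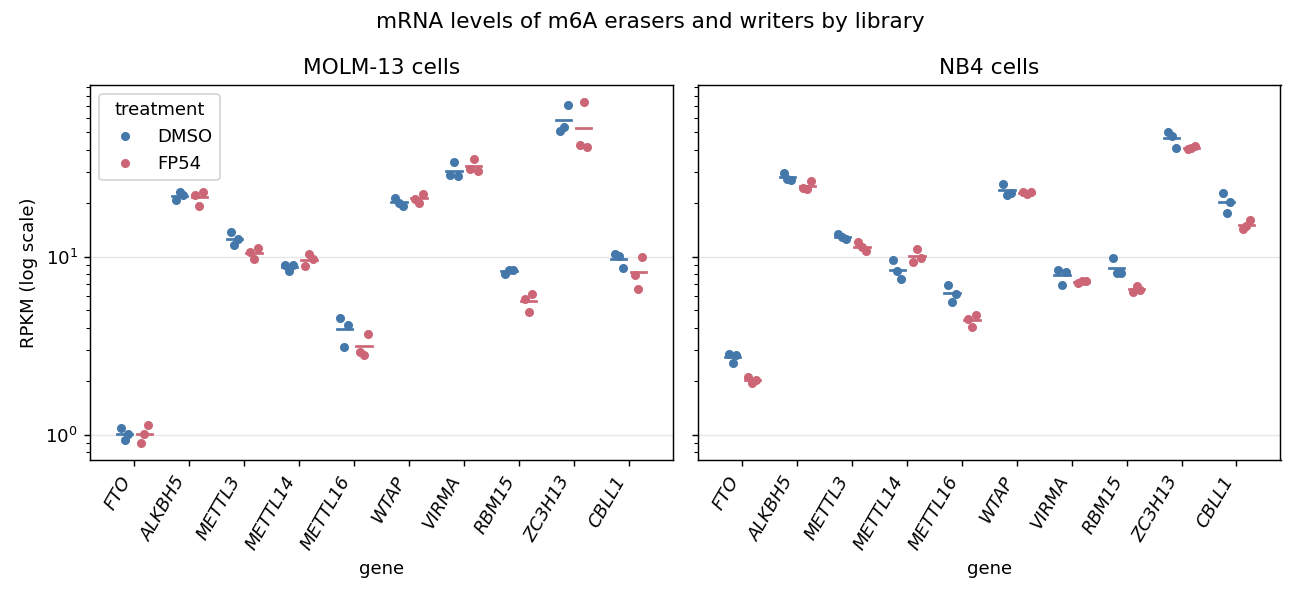
RPKM on a log axis for the 10 genes in each MOLM-13 (left) and NB4 (right) library, with DMSO in blue and FP54 in red. Points are libraries and bars are means of 3. RBM15 is lower in all FP54 libraries than in any DMSO library of both lines, and the FTO points overlap in MOLM-13 but not in NB4.

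After FP54 treatment, RBM15 mRNA fell in both lines, and FTO, METTL16 and CBLL1 mRNA fell in NB4 cells. No member rose, with calls made at a limma adjusted p below 0.05. The count called lower was 1 of 10 in MOLM-13 cells, where 9.32% of all 9710 genes tested were called lower and 9.84% higher. In NB4 cells 4 of the 10 were called lower and 0 higher, where 22% of 9853 genes were called lower and 29.8% higher (limma on log2(RPKM + 0.1), Benjamini-Hochberg adjustment over all genes tested). At an unadjusted p below 0.05, limma gave 1 member in MOLM-13 and 5 in NB4, the fifth being METTL14 with a positive change, where 35% and 58% of all genes passed, and limma-voom on the recovered reads also gave 0 adjusted calls of a rise. The median log2 fold change of the members was -0.11 in MOLM-13 and -0.18 in NB4, beside 0.00 and 0.07 over all genes. The sign was negative for 7 and 9 members. DMSO and FP54 libraries did not overlap for 2 members in MOLM-13 and 6 in NB4, where this held for 37.1% and 60.5% of all genes. In bulk RNA, fewer cells of one state and less RNA per cell cannot be told apart.

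**Figure D2:**
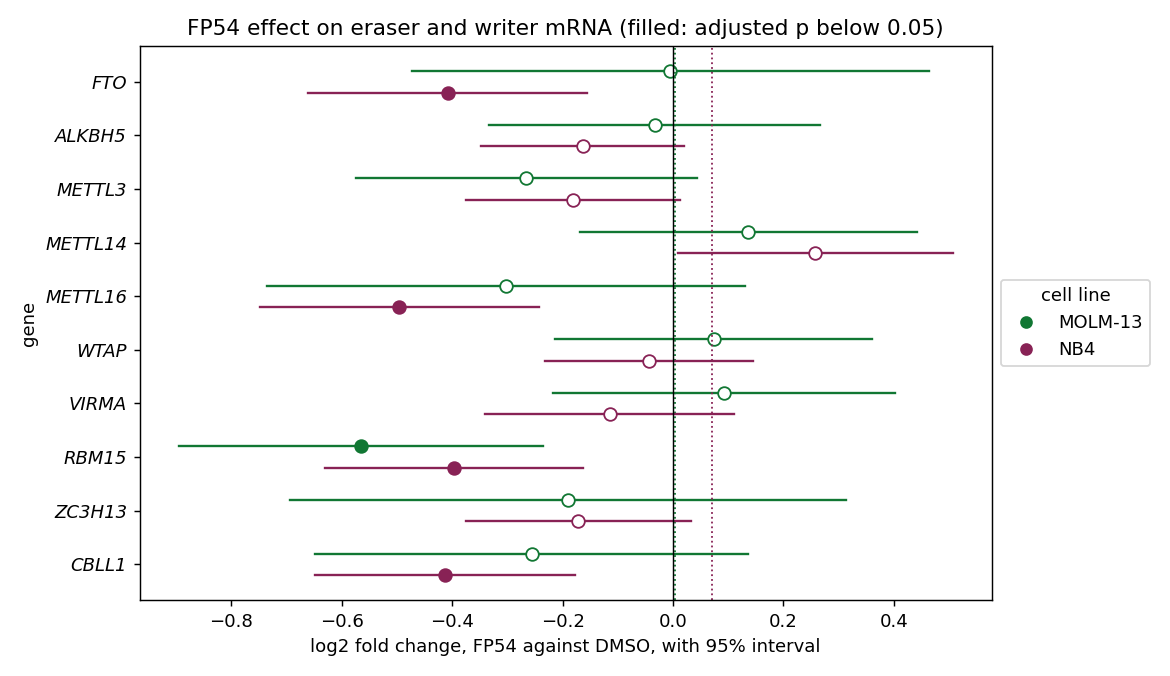
Log2 fold change of FP54 against DMSO with its 95% interval for each gene, in MOLM-13 (green) and NB4 (purple), with filled points where the adjusted p was below 0.05. Dotted lines are the medians of all genes, 0.00 and 0.07, and the filled points are RBM15 in both lines and FTO, METTL16 and CBLL1 in NB4.

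Of the erasers, FTO fell in NB4 cells and ALKBH5 passed in neither line. FTO, on chromosome 16 (chr16:53701692-54158512, plus strand, GRCh38), had 1.09, 0.938 and 1.01 RPKM in the MOLM-13 DMSO libraries and 0.897, 1.00 and 1.13 with FP54. These 6 values were interleaved. The log2 fold change was -0.00 (95% interval -0.47 to 0.46, limma adjusted p = 0.989), an interval that holds changes of the size measured in NB4. In NB4 cells FTO had 2.86, 2.52 and 2.81 RPKM with DMSO and 2.11, 1.95 and 2.03 with FP54, so that every treated library was below every control library. FTO fell by 0.41 on the log2 scale (SE 0.11, limma adjusted p = 0.0119). The call was lost without NB4 FP54 replicate 2 (limma adjusted p = 0.0570). It was also lost at the study's cutoff on this fit, which asks for a log2 change of 0.5.

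The second eraser, ALKBH5, lies at chr17:18183078-18209954 on the plus strand. Its RPKM in MOLM-13 was 20.8, 23.0 and 22.2 with DMSO and 22.2, 19.2 and 23.3 with FP54, and the groups overlapped. In NB4 it was 29.4, 27.4 and 27.1 with DMSO and 24.3, 24.0 and 26.6 with FP54. The NB4 groups were apart, but the log2 fold change of -0.16 (interval -0.35 to 0.02) did not pass (limma adjusted p = 0.123). Within a library, FTO was at 9.75% of ALKBH5 in NB4 DMSO cells and 8.14% with FP54, and at 4.61% and 4.70% in MOLM-13. These are percentages of RPKM, which divides by lengths of 21379 bases for FTO and 3601 for ALKBH5. In NB4 DMSO replicate 1, FTO had 1262 reads and ALKBH5 2188. The log2 ratio differed by -0.26 in NB4 (exact two-sided permutation p = 0.1, the smallest that 3 against 3 libraries allow) and by 0.03 in MOLM-13 (exact p = 1).

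In RPKM, which depends on the gene lengths used, METTL3 of the catalytic core was above METTL14 in 11 of the 12 libraries. Their ratio was lower in the FP54 libraries of each line, but neither gene's change was called. METTL3 (chr14:21498133-21511342, minus strand), the catalytic subunit, had 13.7, 11.7 and 12.6 RPKM in MOLM-13 DMSO cells and 10.7, 9.72 and 11.2 with FP54. In NB4 the values were 13.5, 12.9 and 12.5 with DMSO and 12.1, 11.4 and 10.8 with FP54. Neither line's groups overlapped, yet neither change passed, with log2 fold changes of -0.27 (limma adjusted p = 0.202) and -0.18 (limma adjusted p = 0.106). METTL14 (chr4:118685392-118715433, plus strand), which binds the RNA beside METTL3, had 9.01, 8.32 and 8.94 RPKM with DMSO and 8.93, 10.3 and 9.69 with FP54 in MOLM-13. In NB4 it had 9.54, 8.31 and 7.47 with DMSO and 9.39, 11.0 and 9.85 with FP54. The groups overlapped in both lines, and the log2 fold changes were 0.14 (limma adjusted p = 0.514) and 0.26 (limma adjusted p = 0.0769). Without NB4 DMSO replicate 1 the NB4 change was 0.35 and passed (limma adjusted p = 0.0231).

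As a ratio inside each library, which does not depend on the library total, METTL3 was at 153%, 140% and 141% of METTL14 in the MOLM-13 DMSO libraries and at 119%, 94.2% and 115% with FP54. In NB4 the ratio was 141%, 155% and 167% with DMSO and 129%, 103% and 110% with FP54. All 3 treated libraries lay below all 3 controls in each line, with log2 differences of -0.41 in MOLM-13 and -0.44 in NB4. The exact two-sided permutation p was 0.1 in each line, the smallest possible, and 0.133 after adjustment over the 4 ratio tests. METTL3 shares exon sequence on the opposite strand with the protein-coding gene TOX4, whose log2 fold change was 0.13 in MOLM-13 (limma adjusted p = 0.603) and 0.12 in NB4 (limma adjusted p = 0.271), and whether the counting used strand is not given in the sources used here.

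**Figure D3:**
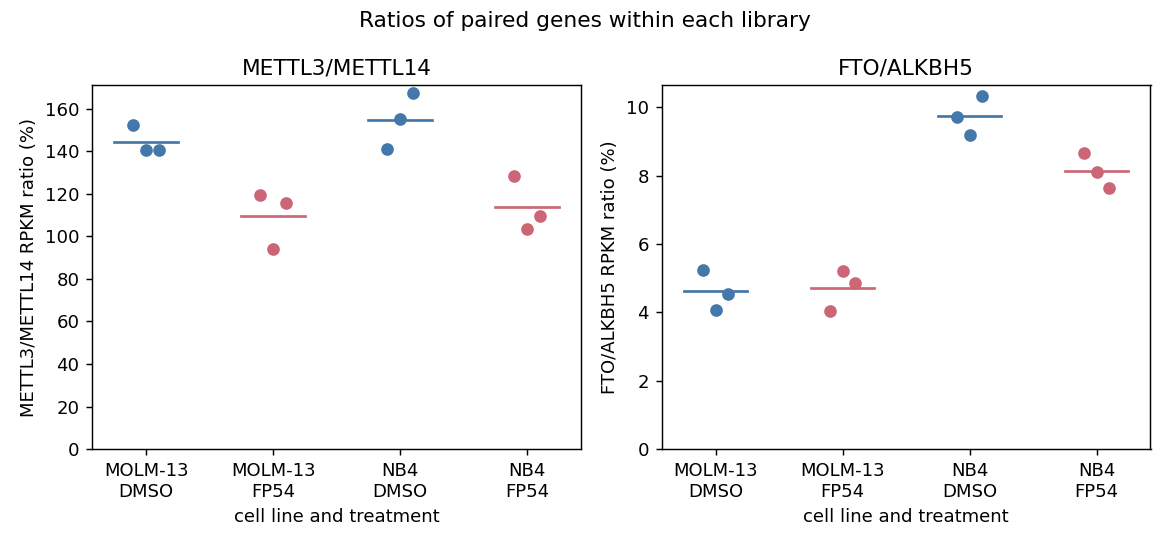
Ratio of METTL3 to METTL14 (left) and of FTO to ALKBH5 (right) in RPKM, in percent, for each library of MOLM-13 and NB4 cells with DMSO (blue) or FP54 (red), with means as bars. The METTL3 to METTL14 means are 145% and 110% in MOLM-13 and 155% and 114% in NB4, with no overlap between treatments.

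The RefSeq windows from 250 bases before to 50 after the start (GRCh38.p14) of both core genes hold the ETS core CCGGAA on one or the other strand, at 3 places each, and are shown because the pair was compared as a ratio. On either strand this motif was found in 17.2% of 35116 such windows. Among the other members, the windows of ZC3H13 (2 places), CBLL1 (1) and METTL16 (1) held it, and those of FTO, ALKBH5, RBM15 and WTAP did not. The match 39 bases before the METTL3 start (chr14:21511362-21511391, minus strand) and that 35 bases before the METTL14 start (chr4:118685345-118685374, plus strand) follow, with the motif in capitals.
METTL3: gaaagcgcgacaCCGGAAatgacttttctg
METTL14: aggaggcgggacTTCCGGgccaagcgagcc
A match describes the letters only.

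METTL16 (chr17:2405562-2511891, minus strand) fell in NB4 cells. Its RPKM was 6.96, 5.59 and 6.19 with DMSO and 4.47, 4.02 and 4.69 with FP54, without overlap. The log2 fold change was -0.50 (SE 0.11, limma adjusted p = 0.00433), and the call held in all 16 alternatives that kept the threshold on the adjusted p. In MOLM-13 cells METTL16 had 4.50, 3.10 and 4.12 RPKM with DMSO and 2.90, 2.80 and 3.69 with FP54. These groups overlapped, and the log2 fold change of -0.30 (interval -0.73 to 0.13) did not pass (limma adjusted p = 0.295).

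RBM15 (chr1:110338506-110346681, plus strand), an RNA-binding subunit that brings the complex to its sites, was the member called in both lines. In MOLM-13 it had 8.05, 8.47 and 8.39 RPKM with DMSO and 5.76, 4.89 and 6.18 with FP54. In NB4 it had 9.88, 8.09 and 8.13 with DMSO and 6.37, 6.81 and 6.50 with FP54. The groups were apart in both lines. RBM15 fell by 0.57 on the log2 scale in MOLM-13 (SE 0.15, limma adjusted p = 0.0273) and by 0.40 in NB4 (SE 0.11, limma adjusted p = 0.00936). The MOLM-13 call was lost without DMSO replicate 1 (limma adjusted p = 0.0834), without DMSO replicate 3 (0.117), without FP54 replicate 1 (0.0863) and with the replicate number as a block (0.0559). In FP54 replicate 2, the shallowest library, RBM15 had 133 reads. Without that library the MOLM-13 estimate was -0.47 (limma adjusted p = 0.0485), short of the 0.5 that the study's cutoff asks for. The NB4 call held in the same 16 alternatives. An antisense RNA gene, RBM15-AS1, overlaps its exons.

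The RBM15 window is shown because this gene moved in both lines and is the member whose window holds the E-box CACGTG, a motif present on either strand in 7.26% of the windows. The E-box starts 181 bases before the RefSeq start (chr1:110339184-110339213, plus strand, inside the longer span that GENCODE gives to the gene), and is in capitals.
RBM15: aacactttgggtCACGTGaccgcagagtgc
The same window holds the 5 letters CCAAT at 6 places on the 2 strands, where 34.6% of windows hold at least 1. Windows were found for 9 of the 10 members, and VIRMA was without one.

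CBLL1 (chr7:107743073-107761667, plus strand), also called HAKAI, a ubiquitin ligase that stabilizes the complex, fell in NB4 cells. It had 22.9, 17.6 and 20.4 RPKM with DMSO and 14.4, 15.0 and 16.0 with FP54, a log2 fold change of -0.41 (SE 0.11, limma adjusted p = 0.00794). The treated libraries were all below the controls, and the call held in those 16 alternatives. The study's cutoff asks for a log2 change of 0.5, and was applied here to the main limma fit, not to counts with DESeq2. With it, the NB4 calls of FTO, METTL16, RBM15 and CBLL1 were lost. METTL16 fell just short at -0.496, and was at -0.504 by limma-voom on the recovered reads (limma-voom adjusted p = 0.00346). In MOLM-13 the CBLL1 values were 10.4, 10.1 and 8.61 with DMSO and 7.91, 6.63 and 10.0 with FP54. FP54 replicate 3 lay among the controls there, and the log2 fold change of -0.26 (interval -0.65 to 0.14) did not pass (limma adjusted p = 0.328). It was -0.12 without FP54 replicate 2 and -0.41 without FP54 replicate 3.

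WTAP, VIRMA and ZC3H13 were called in neither line. WTAP (chr6:159725585-159756319, plus strand), which holds the core in nuclear speckles, stayed between 19.3 and 25.7 RPKM in all 12 libraries, with log2 fold changes of 0.07 in MOLM-13 (interval -0.21 to 0.36) and -0.04 in NB4 (interval -0.23 to 0.15). Its exons overlap those of SOD2 on the opposite strand, and SOD2 fell by 0.71 in NB4 (limma adjusted p = 0.000275). VIRMA (chr8:94487689-94553529, minus strand), a scaffold of the complex, had log2 fold changes of 0.09 (interval -0.22 to 0.40) and -0.11 (interval -0.34 to 0.11). ZC3H13 (chr13:45954465-46052759, minus strand) had the widest spread in MOLM-13, with 51.1, 53.6 and 71.1 RPKM with DMSO and 42.6, 74.2 and 41.5 with FP54. Its log2 fold changes were -0.19 (interval -0.69 to 0.31) and -0.17 (interval -0.38 to 0.03). The MOLM-13 value of ZC3H13 was -0.46 without FP54 replicate 2, the shallowest library (limma adjusted p = 0.0762), and from -0.06 to -0.04 without DMSO replicate 3, FP54 replicate 1 or FP54 replicate 3. In NB4, VIRMA passed without DMSO replicate 2 (-0.20, limma adjusted p = 0.0461) and ZC3H13 without DMSO replicate 3 (-0.26, limma adjusted p = 0.0384).

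Whether the response differed between the lines was tested as an interaction in one limma model of the 12 libraries. No member was called (0 of 10 lower and 0 higher in NB4, where 3.75% and 10.5% of 8849 genes were called, and 0 members at an unadjusted p below 0.05, which 28.2% of genes passed, also 0 by limma-voom). FTO had the largest estimate among the members, with a log2 fold change lower by 0.40 in NB4 (the interaction was -0.40, interval -0.82 to 0.01, limma adjusted p = 0.188). The FTO interaction was -0.57 after median-ratio scaling (limma adjusted p = 0.0440) and -0.79 after quantile normalization (limma adjusted p = 0.00838). For METTL16 (-0.19, interval -0.68 to 0.29), RBM15 (0.17, interval -0.21 to 0.54) and CBLL1 (-0.16, interval -0.61 to 0.30) the intervals covered 0.

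Median-ratio scaling moved the median of all genes in NB4 by -0.20 on the log2 scale, and 9 of the 10 members were then called lower, METTL14 being the exception at 0.06. With that scaling 36.6% of all genes were called lower and 19.2% higher, in place of 22% and 29.8%, and with quantile normalization, which moved the median by -0.10, 28.1% and 23.7%. The NB4 member count stayed at 4 lower with quantile normalization. The study's stricter cutoff on fold change (0.5 or more on the log2 scale, with an unadjusted p under 0.01) was applied to the main limma fit. With it, 0 NB4 members were called, where 10.7% of all genes were lower and 18.6% higher. METTL16 in NB4 was at -0.496 in that fit and at -0.504 by limma-voom. In MOLM-13, 1 member was lower, where 9.04% of all genes were lower and 9.3% higher.

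The levels of the members in the 2 lines were compared with DMSO alone. VIRMA was lower in NB4 than in MOLM-13, while FTO, CBLL1, METTL16 and ALKBH5 were higher, so that 1 member was called lower and 4 higher, where 33.7% and 40.3% of 8849 genes were. VIRMA had 28.7, 34.1 and 28.4 RPKM in MOLM-13 DMSO libraries and 8.43, 6.95 and 8.26 in those of NB4, a log2 difference of -1.93 (SE 0.12, limma adjusted p = 2.67e-09). With FP54 the values also stayed apart, at 31.2, 35.7 and 30.2 in MOLM-13 and 7.15, 7.30 and 7.28 in NB4. FTO was higher in NB4 by 1.35 (SE 0.14, limma adjusted p = 5.3e-07) and CBLL1 by 1.05 (SE 0.15, limma adjusted p = 1.57e-05). METTL16 differed by 0.68 (SE 0.16, limma adjusted p = 0.00147) and ALKBH5 by 0.34 (SE 0.11, limma adjusted p = 0.00872). For METTL3 (0.03, interval -0.20 to 0.27), METTL14 (-0.06, interval -0.32 to 0.20), RBM15 (0.06, interval -0.20 to 0.32), WTAP (0.22, limma adjusted p = 0.0579) and ZC3H13 (-0.33, interval -0.74 to 0.08) no difference was called. WTAP passed without NB4 DMSO replicate 2 (limma adjusted p = 0.0397) and with no filter on low values (limma adjusted p = 0.0424). Cell line and table cannot be told apart, although the members' recovered reads were whole with the same gene lengths in both tables.

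**Figure D4:**
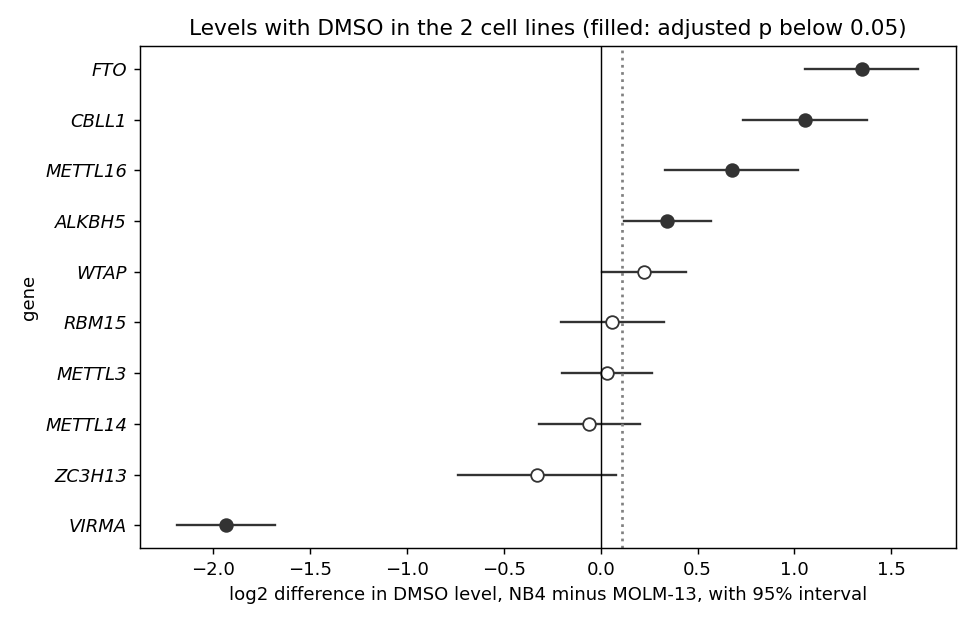
Log2 difference in level between NB4 and MOLM-13 DMSO libraries, NB4 minus MOLM-13, with the 95% interval of each gene (3 libraries per line) and filled points at an adjusted p below 0.05. FTO is highest at 1.35 and VIRMA lowest at -1.93, and the dotted line is the median of all genes, 0.11.

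The 3 genes whose log2 level ran most like that of FTO over the 12 libraries, among 8848 others, were TM7SF3, CCNB1, the mitotic cyclin B1, and BUB1, a kinase of the spindle checkpoint, each with a Pearson r of 0.99. Mean RPKM of CCNB1 was 12.7 and 14.4 in MOLM-13 (DMSO and FP54) and 104 and 55.4 in NB4. BUB1 had means of 5.32, 4.58, 31.6 and 20.6 in the same order, and TM7SF3 10.9, 10.3, 62.3 and 40.1. The 12 points fall into the 2 lines, so these values describe mostly the difference between lines. Among the members, CBLL1 was closest to FTO (r = 0.95) and VIRMA farthest (r = -0.94).

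Other genes of the pathway were counted from lists that share no gene with the 10 members. Of 6 other RNA methyltransferases and partners, 1 was called lower in MOLM-13 and 2 in NB4, and 0 higher. Of all genes tested, 9.32% were called lower and 9.84% higher in MOLM-13, and 22% and 29.8% in NB4. RBM15B, the paralog of RBM15, fell in both lines, from a mean of 6.16 to 4.10 RPKM in MOLM-13 (log2 fold change -0.56, limma adjusted p = 0.0406) and from 16.6 to 12.7 in NB4 (-0.38, limma adjusted p = 0.00325). TRMT112, the partner of the ribosomal RNA methyltransferase METTL5, fell in NB4 (-0.41, limma adjusted p = 0.0150). METTL4 had log2 fold changes of -0.47 in MOLM-13 (limma adjusted p = 0.0913) and 0.29 in NB4 (limma adjusted p = 0.0945).

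Of 3 genes that supply or recycle the methyl donor, 1 was called lower in MOLM-13 and 2 in NB4, with 0 higher. The shares of all genes called lower were 9.32% and 22%, and those called higher 9.84% and 29.8%. MAT2A, which makes S-adenosylmethionine and whose mRNA is a METTL16 substrate, fell from 185 ± 14.3 to 117 ± 1.87 RPKM in NB4 (log2 fold change -0.66, limma adjusted p = 9.94e-05). In MOLM-13 its means were 43.2 ± 14.9 and 27.2 ± 7.91, and the change of -0.64 did not pass (limma adjusted p = 0.122). AHCY, which clears the by-product S-adenosylhomocysteine, fell in MOLM-13 (-0.77, limma adjusted p = 0.00791), and MAT2B, the regulatory partner of MAT2A, fell in NB4 (-0.36, limma adjusted p = 0.0119).

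Among 11 m6A readers and reader-like RNA-binding proteins, 10 were tested in MOLM-13, where 1 was called lower and 1 higher. In NB4 11 were tested, where 4 were lower and 1 higher. For these and the AlkB genes below, the shares of all genes were 9.32% lower and 9.84% higher in MOLM-13. In NB4 they were 22% and 29.8%. HNRNPA2B1, a nuclear RNA-binding protein, fell in both, from 139 to 77.0 RPKM in MOLM-13 (-0.88, limma adjusted p = 0.0139) and from 271 to 169 in NB4 (-0.68, limma adjusted p = 4.64e-05). YTHDF2, which sends methylated mRNA to decay, fell in NB4 (-0.38, limma adjusted p = 0.00407). Its MOLM-13 estimate of -0.31 did not pass (limma adjusted p = 0.155), and the interaction was -0.07 (limma adjusted p = 0.822). FMR1 rose in MOLM-13 (0.72, limma adjusted p = 0.0242). Of the 7 other AlkB family genes, 1 was lower and 1 higher in each line. ALKBH2, a DNA repair dioxygenase, fell by 0.85 in MOLM-13 (limma adjusted p = 0.0261) and by 0.44 in NB4 (limma adjusted p = 0.0113). ALKBH6 rose by 0.73 (limma adjusted p = 0.00970) and 0.40 (limma adjusted p = 0.0354).

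**Figure D5:**
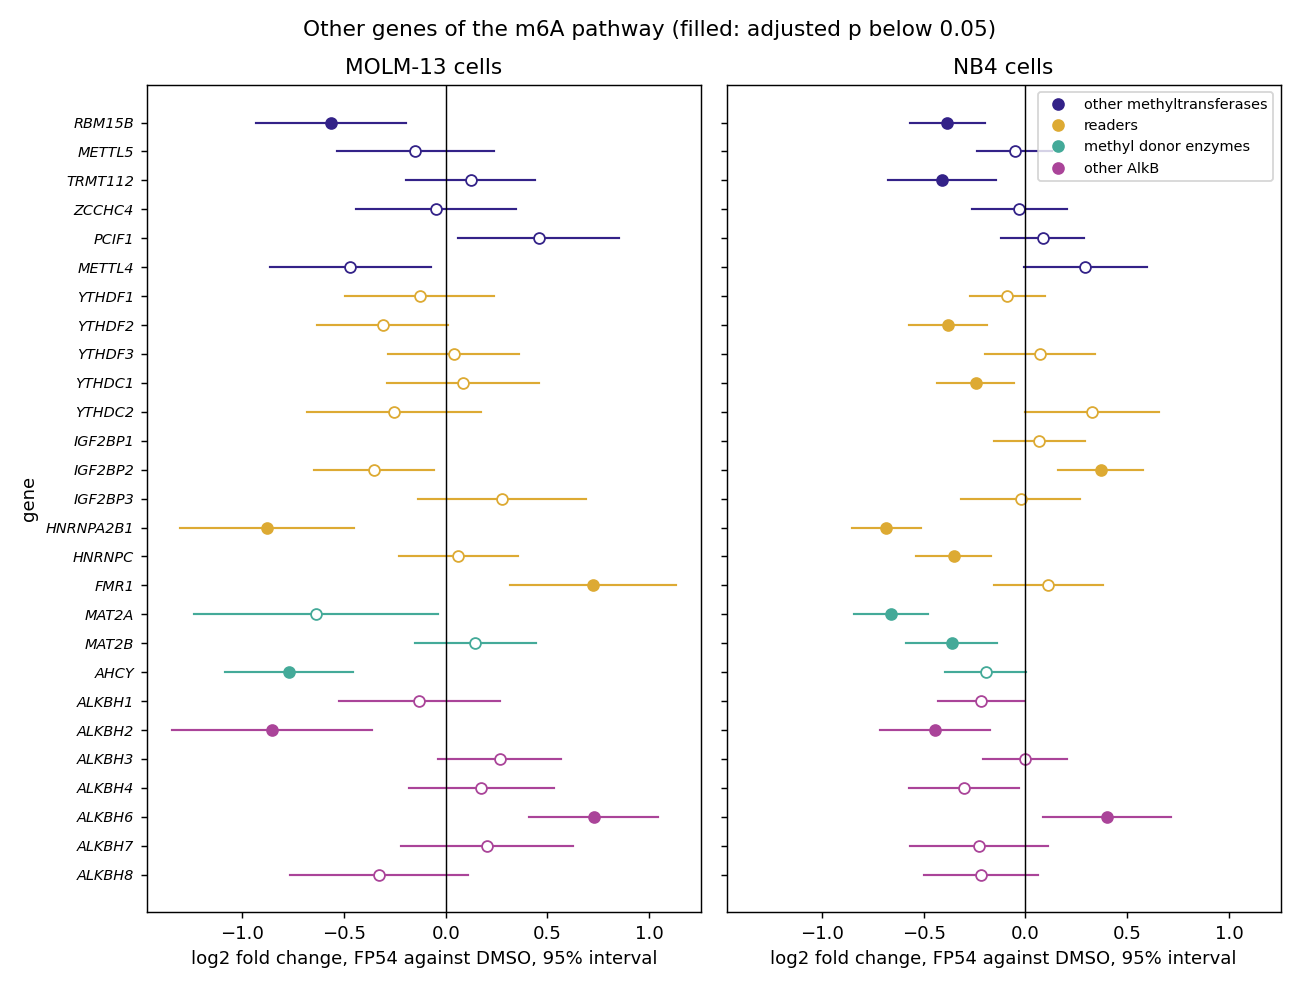
Log2 fold change of FP54 against DMSO with its 95% interval for the other pathway genes in MOLM-13 (left) and NB4 (right), colored by list, with filled points at an adjusted p below 0.05. RBM15B, HNRNPA2B1 and ALKBH2 are lower and ALKBH6 is higher in both panels, and IGF2BP1 was not tested in MOLM-13.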

How the data were processed

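RNA-seq of 12 of the 22 labelled samples was used. According to the study's methods and the submitters' processing notes, RNA passed 2 rounds of poly(A) selection. Cutadapt 4.8 trimmed the reads, Clumpify dropped duplicates, STAR 2.7.11b mapped them to hg38, and featureCounts 2.0.3 assigned them to protein-coding genes of GENCODE V42. The authors deposited RPKM, whose length and total are not given in the sources used here. Exon-union lengths of GENCODE v44 gave whole reads (within 0.05) for 19979 genes in both tables, which gave the depths. The counts behind each value set the precision of low genes.

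Log2(RPKM + 0.1) was fitted with limma 3.58.1 in R 4.3.3 (eBayes with trend) over genes with a mean of at least 1 RPKM, and called at a Benjamini-Hochberg adjusted p below 0.05. Intervals are at 95%. Ratios within a library were compared by exact permutation. Tables and figures were made with Python 3.11.15, pandas 2.3.3 and matplotlib 3.10.9. The fit was tested on simulated data.

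The members, gene lists and tests were chosen with earlier results of these data known. All members were named. Up to 2 genes per pathway list and line with the smallest p were named, with the 3 genes most correlated with FTO. Nothing says that replicates came from separate cultures, so p-values measure the spread between these libraries, which may be technical. Libraries with the same replicate number were not paired in the main fit. Alternatives were pseudocounts of 1 and 0.01, no filter or a mean of at least 5 RPKM, median-ratio and quantile scaling, the replicate block, no trend, the study's cutoff, limma-voom, and leaving out each library. Subtraction of the olfactory receptor level was chosen after seeing the data. Promoter windows, from RefSeq, were searched for 4 motifs on both strands.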

Additional observations from a re-analysis of the deposited data

Results flagged for a closer look

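FP54 changes of 4 pathway genes outside the 10 members differed between the lines by the limma interaction test. The genes tested were 6 other methyltransferases and partners, 10 readers, 3 methyl donor genes and 7 other AlkB genes. Of all 8849 genes, 3.75% were called lower and 10.5% higher in NB4. METTL4, which had a negative estimate in MOLM-13 and a positive one in NB4, differed by 0.76 on the log2 scale (NB4 minus MOLM-13, limma adjusted p = 0.0245). AHCY differed by 0.57 (limma adjusted p = 0.0340), with log2 fold changes of -0.77 in MOLM-13 and -0.20 in NB4. MAT2B differed by -0.51 (limma adjusted p = 0.0478), with 0.15 in MOLM-13 and -0.36 in NB4. The reader IGF2BP2, named after its values were seen, differed by 0.72 (limma adjusted p = 0.00664), with means of 39.4 and 30.8 RPKM in MOLM-13 (DMSO and FP54) and 14.1 and 18.3 in NB4.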

How the results depend on the processing

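The shallowest library and 3 libraries per group limit small changes. Of 683 recomputed values of single members, 647 kept their direction and side of the threshold, 12 passed it newly, 5 no longer passed and 19 turned sign. With the replicate block the MOLM-13 count of lower members was 0 in place of 1 (RBM15, limma adjusted p = 0.0559), and the 4 lower in NB4 stayed 4. With group means taken off, same-numbered libraries correlated at -0.26, -0.13 and -0.06 in MOLM-13 and at -0.14, 0.07 and 0.12 in NB4. In MOLM-13, DMSO 1 with FP54 3 (0.59), DMSO 2 with FP54 1 (0.49) and DMSO 3 with FP54 2 (0.47) correlated more. The other differently numbered MOLM-13 pairs were at -0.27, -0.37 and -0.46, and those of NB4 ran from -0.26 to 0.22. A pairing across numbers was not fitted, and its part in the MOLM-13 results was not tested. The block could not be fitted for the DMSO levels. Leaving out each library gave 0 to 1 lower in MOLM-13, and 3 to 5 lower and 0 to 1 higher (METTL14) in NB4. At the study's cutoff on the main fit 0 NB4 members were lower, after median-ratio scaling 9. The interaction gave 1 member lower (FTO) after median-ratio scaling and 1 after quantile normalization. A filter at a mean of 5 RPKM left 2 members higher in NB4 DMSO cells, because FTO and METTL16 were then not tested. FTO was also not tested in NB4 at that filter. Signs turned for estimates that were not called as reported, WTAP in NB4 among them, which was called lower after median-ratio scaling (-0.24, limma adjusted p = 0.0302). Over the left-out libraries, the MOLM-13 estimates ran from -0.082 to 0.070 for FTO (0.046 was the other positive value) and from -0.089 to 0.047 for ALKBH5. In NB4, WTAP was 0.029 after quantile normalization and ran from -0.084 to 0.019. In the interaction after median-ratio scaling, METTL3 was -0.087, METTL14 -0.050, RBM15 -0.0013 and ZC3H13 -0.15, and ZC3H13 ran from -0.13 to 0.29 over the left-out libraries. In DMSO levels METTL3 was -0.0080 after median-ratio scaling and -0.074 after quantile normalization, where RBM15 was -0.026. Over the left-out libraries METTL3 ran from -0.023 to 0.093, RBM15 from -0.034 to 0.11 and METTL14 from -0.15 to 0.025. The log2 ratio of FTO to ALKBH5 in MOLM-13 ran from -0.058 to 0.13. The cause was not tested.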
